A study of Mus musculus with 24 samples.

Results

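The glutathione and antioxidant genes described here are 38 mouse genes, chosen by symbol, out of 24007 genes counted in RNA-seq libraries of sorted mammary epithelium. They comprise 5 glutathione peroxidases, 12 glutathione transferases, 4 genes of glutathione synthesis and reduction, 3 NRF2 pathway enzymes, 8 thioredoxin and peroxiredoxin genes, 4 genes for superoxide dismutases and catalase, and the regulators Nfe2l2 and Keap1. Each of the 38 matched 1 row of the count table. ID4, encoded by Id4, is an inhibitor of DNA binding that pairs with basic helix-loop-helix factors and keeps them off DNA. The 24 libraries come from ID4 KO and wild-type (WT) FVB/N female mice, sampled in estrus at 10 to 12 weeks of age, with 4 replicates for each genotype and population. In every group, epithelial cells of 4 to 8 animals were pooled and sorted as live, lineage-negative, CD24+ cells into 3 populations. Basal cells were CD29hi CD61+, luminal progenitors (LP) were CD29lo CD61+, and mature luminal cells (ML) were CD29lo CD61-. The labels name no Cre driver, and a pool hides the spread between its animals.

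Glutathione is a tripeptide thiol made by glutamate-cysteine ligase (the catalytic subunit Gclc and the modifier subunit Gclm) and glutathione synthetase (Gss), and its oxidised form is returned to the thiol by glutathione reductase (Gsr). Glutathione peroxidases spend it on peroxides and glutathione transferases join it to electrophiles, while thioredoxin (Txn1), thioredoxin reductase (Txnrd1) and the peroxiredoxins form a parallel peroxide-removing chain that sulfiredoxin (Srxn1) repairs. NRF2, encoded by Nfe2l2, is held for degradation by KEAP1 and, when released, drives many of these genes through antioxidant response elements. In the mammary gland, luminal progenitors and mature luminal cells are the milk-forming and hormone-sensing lineages, and basal cells include the contractile myoepithelium.

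Assigned counts ranged from 3098433 to 7246445 per library. In KO basal libraries Id4 had 10.3, 1.13, 11.1 and 0.942 CPM (counts per 1000000 assigned counts, scaled by TMM), against 86.3, 13.2, 29.9 and 39.6 CPM in WT basal libraries, with no overlap, and the difference did not pass the test over all genes (log2 fold change -2.80, SE 0.87, adjusted p = 0.998). The highest luminal library had 1.41 CPM of Id4. Each population held its own marker genes, but WT basal replicate 2 stood apart: its 8 luminal progenitor markers summed to 7172 CPM, against 349 to 747 CPM in the other WT basal libraries and 357 to 1883 CPM in KO basal libraries. KO basal replicate 3 had the fewest assigned counts, 11837 detected genes and 221 CPM over 6 endothelial markers, where the other KO basal libraries had 38.2 to 65.4 CPM. Counts of basal calls are given with all libraries and without these libraries below, with the values of the members whose calls change. Nothing in the labels says that replicates 1 to 4 of different groups came from the same pools, and p-values measure the spread between these pooled samples.

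Compared per kilobase of transcript, Prdx1, Sod1 and Txn1 stood near the top in every group. Prdx1, which encodes an abundant cytosolic peroxiredoxin, averaged 152, 142 and 149.6 CPM per kb in KO basal, KO LP and KO ML cells, and 154, 165 and 171 CPM per kb in the same WT populations. Sod1, the cytosolic copper-zinc superoxide dismutase, and Txn1 were close to it, with Sod1 at 98.9, 192 and 152 CPM per kb and Txn1 at 102, 101 and 176 CPM per kb in WT basal, LP and ML cells. Gpx1, the cytosolic glutathione peroxidase, was lower in basal cells, at 37.4 CPM per kb, against 97.97 in LP and 133 in ML cells of WT mice. The highest member differed by lineage. It was Mgst1, a microsomal glutathione transferase, in LP cells (231 CPM per kb in KO and 282 in WT), and Gpx3, which encodes the secreted plasma-type glutathione peroxidase, in ML cells (386 in KO and 1194 in WT).

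At the other end, Gsta3 was at 0 counts in 14 of the 24 libraries, Gpx7 and Sod3 in 10 each, Mgst2 in 7 and Gstm2 in 3. A count of 0 allows up to 3 counts, which is between 0.378 and 0.976 CPM depending on the library and covers counting error only. After the filter on low counts, 35 of the 38 members were tested in the population comparisons, 33, 34 and 32 in basal, LP and ML cells in the comparisons within a population, and 37 in the fits over 24 libraries. Gpx7, below the filter between populations, had 3.56 and 2.07 CPM per kb in KO and WT basal cells. It had 0.033 and 0.253 in LP and 0.0613 and 0.0617 in ML cells. DESeq2 called it higher in KO basal than in KO LP (6.345, adjusted p = 0.00552) and KO ML cells (5.85, adjusted p = 0.00982). It did so in WT basal over ML (5.14, adjusted p = 0.0049) but not over LP cells. The fits with no filter called the same comparisons. Gclm had non-whole expected counts in 23 libraries, Gstp1 in 13, Gstt3 in 2 and Prdx2 in 1, so reads of these genes were shared with other sequences and their values are uncertain.

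**Figure D1:**
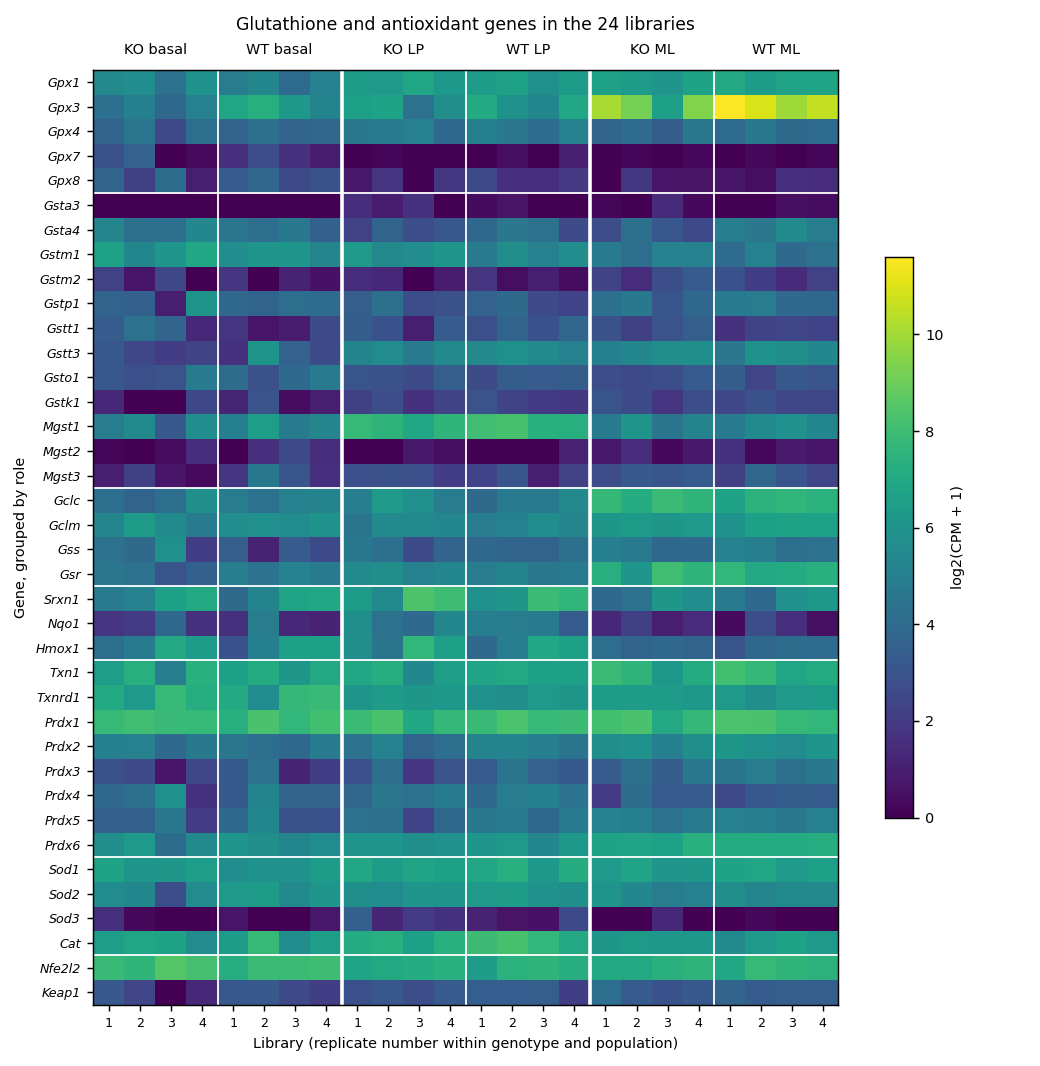
Level of the 38 members, as log2(CPM + 1), in each of the 24 libraries. Rows are genes grouped by role, columns are replicates 1 to 4 of KO then WT for basal, LP and ML cells. Gpx3 is brightest in ML cells, Mgst1 in LP cells, and Srxn1 is brighter in replicates 3 and 4 than in 1 and 2 within every group.

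Gsr and Gclc, a glutathione-recycling and a glutathione-making gene, were lower in WT basal and in WT LP cells than in mature luminal cells. Of 35 members tested, 11 differed between WT basal and ML cells (4 higher and 7 lower in basal), where 24.6% of all 12771 genes tested did (14% higher and 10.6% lower). Between WT LP and ML cells 11 members differed (5 higher and 6 lower in LP), against 11.5% of all genes (6.62% higher and 4.89% lower). Between WT basal and LP cells 4 members differed (1 higher and 3 lower in basal), against 15.8% of all genes (9.12% higher and 6.68% lower). The median log2 fold change of the members was -0.60, -0.27 and -0.22 in these 3 comparisons, and that of all genes 0.01, -0.01 and -0.03. In bulk RNA, fewer cells of a type and less RNA per cell cannot be told apart.

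Glutathione synthesis and reduction showed the clearest lineage pattern: 3 of its 4 genes were lower in WT basal than in ML cells, and 3 of 4 lower in WT LP than in ML cells. Gsr (chr8:33652523-33698163) had 30.2, 20.2, 35.00 and 27.7 CPM in WT basal libraries, 29.7, 36.6, 24.1 and 27.7 in WT LP and 206, 127, 140.00 and 163 in WT ML, so every ML library lay above every basal and LP library. It was lower in basal than in ML cells (log2 fold change -2.48, SE 0.26, adjusted p = 5.51e-06) and lower in LP than in ML cells (log2 fold change -2.42, SE 0.26, adjusted p = 2.43e-05). Gclc (chr9:77754535-77794485), the catalytic subunit of the rate-limiting ligase, had 28.7, 19.2, 32.9 and 35.5 CPM in WT basal, 15.1, 26.9, 26.98 and 42.9 in WT LP and 101, 174, 201 and 171 in WT ML libraries, again with ML above both others in every library. Its log2 fold changes were -2.46, SE 0.33 (adjusted p = 5.34e-05) for basal over ML and -2.53, SE 0.33 (adjusted p = 0.000127) for LP over ML. Gclm was lower in LP than in ML (log2 fold change -1.23, SE 0.25, adjusted p = 0.00426), and basal over ML gave -0.68 (adjusted p = 0.0581), or -0.73, adjusted p = 0.0406 without WT basal replicate 2. Gss was lower in basal than in ML (log2 fold change -1.96, SE 0.53, adjusted p = 0.0133) and had 14.3 ± 2.79 CPM in LP and 25.4 ± 8.17 CPM in ML cells (SD, n = 4 each). None of the 4 passed between basal and LP cells.

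The glutathione peroxidases differed among themselves. Gpx3 (chr11:54902453-54910377) had 113, 159, 72.4 and 36.8 CPM in WT basal, 136, 60.3, 39.8 and 123 in WT LP and 3130.1, 1993, 980.2 and 1507 in WT ML libraries. The lowest ML library was thus well above the highest library of either other population, and Gpx3 was 19.6-fold lower in basal than in ML (log2 fold change -4.30, SE 0.52, adjusted p = 2.21e-05) and 21.2-fold lower in LP than in ML (log2 fold change -4.40, SE 0.53, adjusted p = 5.51e-05). Gpx1 (chr9:108338903-108340343) had 29.7, 40.7, 15.7 and 33.8 CPM in WT basal, 80.6, 98.4, 55.2 and 79.4 in WT LP and 126, 83.7, 107 and 109.8 in WT ML libraries. All basal libraries were below all luminal ones, both for basal over LP (log2 fold change -1.37, SE 0.29, adjusted p = 0.00387) and basal over ML (log2 fold change -1.80, SE 0.29, adjusted p = 0.000291). Gpx8, an endoplasmic reticulum member of the family, ran the other way: 9.57, 13.2, 4.83 and 6.30 CPM in WT basal, 5.29, 1.94, 1.93 and 2.85 in WT LP and 0.638, 0.341, 2.01 and 1.77 in WT ML libraries. Its basal over ML value was log2 fold change 2.86, SE 0.73, adjusted p = 0.00939, with no overlap between the groups. Gpx4, which removes lipid peroxides, had 12.5 to 18.3 CPM in WT basal, 15.4 to 33.4 in WT LP and 15.1 to 24.9 in WT ML libraries and passed in none of the 3 comparisons.

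**Figure D2:**
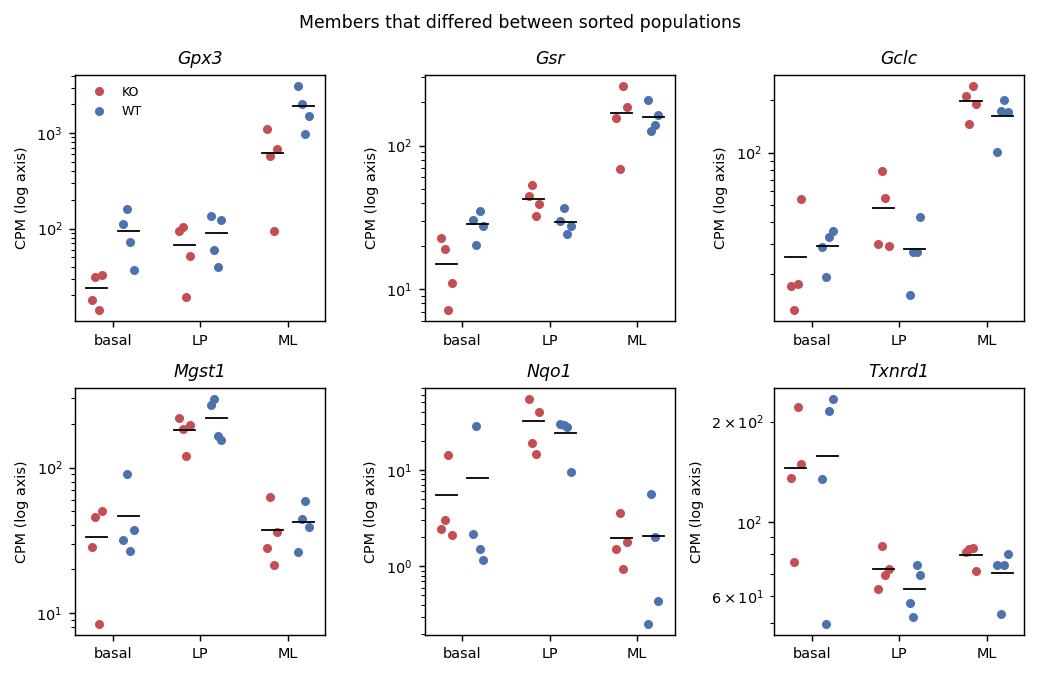
CPM on a log axis for 6 members by population, with KO (red) left of WT (blue); each point is 1 library and the bar is the mean of 4. Gpx3, Gsr and Gclc are highest in ML cells, Mgst1 and Nqo1 in LP cells and Txnrd1 in most basal libraries, with WT basal replicate 2 at 28.5 CPM of Nqo1 and 49.7 CPM of Txnrd1.

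Luminal progenitors were marked out by Mgst1 and, with wider spread, Nqo1. Mgst1 (chr6:138140316-138156755) had 31.7, 90.7, 26.6 and 37.5 CPM in WT basal, 267, 296, 164 and 154 in WT LP and 26.1, 44.6, 58.5 and 39.1 in WT ML libraries. Every LP library lay above all others, with lower levels in basal than in LP (log2 fold change -2.21, SE 0.39, adjusted p = 0.000923) and higher levels in LP than in ML (log2 fold change 2.39, SE 0.39, adjusted p = 0.000772). The highest basal value is WT basal replicate 2, and without that library basal over LP gave -2.79, adjusted p = 1.45e-05. Nqo1 (chr8:107388225-107403206), a quinone reductase and a classic NRF2 target, had 2.17, 28.5, 1.51 and 1.16 CPM in WT basal, 29.9, 29.3, 27.7 and 9.49 in WT LP and 0.255, 5.63, 2.01 and 0.442 in WT ML libraries. LP and ML libraries did not overlap (log2 fold change 3.53, SE 1.08, adjusted p = 0.0448), but the call held in only 1 of the 8 fits that left out a library, the one without WT ML replicate 2. Over all 16 alternatives it passed in 6, with adjusted p up to 0.428. The smallest adjusted p, 0.00214, came with the replicate number as a block (log2 fold change 4.38). The block also gave -2.76, adjusted p = 0.0203 for basal over LP. Replicate 2 was the only WT basal library within the LP range.

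Cat, which encodes the peroxisomal catalase, had 84.2, 219, 50.1 and 88.3 CPM in WT basal, 247, 301, 203 and 129 in WT LP and 45.03, 77.00, 101 and 76.2 in WT ML libraries. It was higher in LP than in ML cells with no overlap (log2 fold change 1.57, SE 0.40, adjusted p = 0.0168). That call was lost without WT LP replicate 2, WT ML replicate 1 or WT ML replicate 4. Sod1 (chr16:90220754-90226329) had 50.01, 60.9, 60.7 and 84.03 CPM in WT basal, 121, 161, 71.8 and 143 in WT LP and 107, 116, 77.2 and 91.7 in WT ML libraries, and basal was lower than LP with overlapping libraries (log2 fold change -0.95, SE 0.27, adjusted p = 0.0233). The call was lost without WT basal replicate 1, WT LP replicate 2 or WT LP replicate 4. Sod2, the mitochondrial enzyme, had 45.6 to 82.1 CPM in WT basal, 53.6 to 81.98 in WT LP and 37.6 to 52.3 in WT ML libraries and did not pass.

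Among the transferases, 1 of 11 tested differed in each WT comparison: Mgst1 in both comparisons with LP cells, and Gstm1 between basal and ML cells. Gstm1, a cytosolic mu-class transferase, had 50.6, 66.00, 67.9 and 37.5 CPM in WT basal, 27.3, 51.6, 32.5 and 51.1 in WT LP and 15.8, 31.9, 14.7 and 19.3 in WT ML libraries. All basal libraries were above all ML libraries (log2 fold change 1.46, SE 0.35, adjusted p = 0.00558). Gstt3 had 2.17, 63.4, 11.5 and 5.30 CPM in WT basal libraries, where replicate 2 alone reached the range of 32.4 to 56.5 CPM in WT LP and 23.1 to 61.8 CPM in WT ML. It passed in neither basal comparison with all libraries, and in both without WT basal replicate 2 (-2.87, adjusted p = 0.00055 against LP; -2.87, adjusted p = 0.000411 against ML). The other transferases, Gsto1, Gstp1, Gstt1, Gsta4, Gstm2, Gstk1, Mgst2 and Mgst3, passed in none of the WT comparisons, and Gsta3 was below the filter.

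In the thioredoxin chain, Txnrd1 (chr10:82833951-82897712) was the 1 gene of 8 that was higher in basal cells. It had 134, 49.7, 215 and 234 CPM in WT basal, 57.2, 52.1, 74.2 and 69.4 in WT LP and 74.6, 53.1, 74.6 and 80.02 in WT ML libraries. Replicates 1, 3 and 4 were above every luminal library and replicate 2 was below all of them. The basal over LP value was log2 fold change 1.33, SE 0.35, adjusted p = 0.0172, and 1.62, adjusted p = 0.000133 without replicate 2; the basal over ML value was log2 fold change 1.18, SE 0.35, adjusted p = 0.0227, and 1.46, adjusted p = 0.000236 without it. Against LP, the call was lost without WT basal replicate 3 or 4 or WT LP replicate 1 or 2, and against ML without WT basal replicate 3 or 4 or WT ML replicate 2. Prdx2 and Prdx6, a typical and a one-cysteine peroxiredoxin, were lower in basal than in ML cells (-1.55, adjusted p = 0.00139; -1.43, adjusted p = 0.000422) and lower in LP than in ML cells (-0.96, adjusted p = 0.0466; -1.14, adjusted p = 0.00516). Prdx4, the secretory-pathway peroxiredoxin, was higher in LP than in ML cells (log2 fold change 1.58, SE 0.49, adjusted p = 0.0485). The LP over ML calls of Prdx2 and Prdx4 were lost in each of the 8 fits that left out a library. Txn1, Prdx1, Prdx3 and Prdx5 did not pass in the WT comparisons.

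Leaving out WT basal replicate 2 raised the members called to 9 between basal and LP cells (1 higher and 8 lower in basal) and to 18 between basal and ML cells (5 higher and 13 lower in basal), where 21% and 30.2% of all genes were then called. All 4 and all 11 members called with every library were among them, in the same direction. The basal over ML log2 fold changes without this library were -2.36 for Gsr, -2.32 for Gclc, -1.62 for Gss, -4.68 for Gpx3, -2.004 for Gpx1, 2.54 for Gpx8, 1.34 for Gstm1 and 2.30 for Hmox1. Cat, Gstk1, Nqo1 and Prdx5 were then lower in basal than in LP cells beside Gstt3, and the log2 fold change of Nqo1 was -3.87, adjusted p = 0.00415. Without WT LP replicate 2, 2 members were called between basal and LP cells. Between LP and ML cells 7 were called without WT LP replicate 2, 3 or 4 and 6 without WT ML replicate 1 or 4. Among replicates 1-2 alone, 0, 3 and 2 members were called between basal and LP, basal and ML, and LP and ML cells, where 2.65%, 6.64% and 1.09% of all genes were. Among replicates 3-4 alone, 10, 14 and 9 members were called in the same order, where 15.4%, 24% and 10.8% of all genes were.

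In KO mice the same comparisons called 7 members between basal and LP cells (3 higher and 4 lower in basal), against 14.8% of 12711 genes (8.12% higher and 6.69% lower). They called 10 between basal and ML cells (5 higher and 5 lower in basal), against 19.4% of genes (11.9% higher and 7.51% lower). Between KO LP and ML cells 6 were called (3 higher and 3 lower in LP), against 5.67% of genes (4.08% higher and 1.59% lower). Gsr had 22.9, 19.04, 7.15 and 11.1 CPM in KO basal, 44.5, 52.9, 32.4 and 39.2 in KO LP and 156, 68.7, 261 and 184 in KO ML libraries, and none of these ranges overlapped. It was lower in basal than in LP (log2 fold change -1.43, SE 0.41, adjusted p = 0.0241), lower in basal than in ML (log2 fold change -3.39, SE 0.43, adjusted p = 3.08e-05) and lower in LP than in ML (log2 fold change -1.96, SE 0.41, adjusted p = 0.00779). Gclc had 17.2, 12.4, 17.6 and 53.9 CPM in KO basal, 29.95, 78.02, 55.2 and 28.97 in KO LP and 211, 147, 242 and 191 in KO ML libraries, with ML above both others (log2 fold change -2.89, SE 0.46, adjusted p = 0.000267 for basal over ML; log2 fold change -2.01, SE 0.45, adjusted p = 0.0119 for LP over ML). Mgst1 again led in LP cells, with 28.5, 45.6, 8.46 and 50.4 CPM in KO basal, 220.2, 184, 120.5 and 196 in KO LP and 27.8, 62.8, 21.2 and 35.9 in KO ML libraries. LP did not overlap the others (log2 fold change -2.38, SE 0.46, adjusted p = 0.00184 for basal over LP; log2 fold change 2.30, SE 0.46, adjusted p = 0.00597 for LP over ML). Nqo1 had 2.42, 3.02, 14.3 and 2.12 CPM in KO basal, 54.3, 19.04, 14.7 and 40.2 in KO LP and 1.53, 3.55, 0.939 and 1.80 in KO ML libraries. It was higher in LP than in ML cells (log2 fold change 4.02, SE 0.79, adjusted p = 0.00562), and its basal over LP value was log2 fold change -2.49, SE 0.74, adjusted p = 0.0309, or -3.66, adjusted p = 0.00122 without KO basal replicate 3. This call was lost without KO basal replicate 1, 2 or 4 or KO LP replicate 1 or 4, among alternatives whose adjusted p ran from 0.00122 to 0.388.

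Gstt3 had 8.05, 4.71, 3.25 and 4.24 CPM in KO basal, 36.7, 47.3, 26.04 and 43.4 in KO LP and 31.6, 38.6, 51.8 and 54.4 in KO ML libraries. All KO basal libraries were below all luminal ones (log2 fold change -2.85, SE 0.42, adjusted p = 0.000181 against LP; log2 fold change -3.03, SE 0.42, adjusted p = 7.37e-05 against ML). Gsta4, a transferase active on lipid aldehydes, ran the other way, with 37.9, 18.7, 17.9 and 40.7 CPM in KO basal, 3.96, 12.4, 5.92 and 7.90 in KO LP and 5.60, 18.4, 7.89 and 4.85 in KO ML libraries. Basal over LP gave log2 fold change 1.97, SE 0.59, adjusted p = 0.0316 with no overlap, and basal over ML gave log2 fold change 1.71, SE 0.58, adjusted p = 0.0499 with overlap; either call held in 3 of the 8 fits that left out a library. Gstm1 had 97.8, 39.8, 68.6 and 121 CPM in KO basal and 26.8, 17.2, 33.99 and 35.01 in KO ML libraries, with basal above ML throughout (log2 fold change 1.61, SE 0.37, adjusted p = 0.00503). Without KO LP replicate 1 or 4 the basal over LP count was 3 or 4, and without KO ML replicate 4 the basal over ML count was 6. Without KO basal replicate 3, the library with the fewest counts, 6 members were called between basal and LP cells (2 higher and 4 lower) and 8 between basal and ML cells (2 higher and 6 lower), where 16.4% and 20.3% of all genes were. Of those called with every library, all but Txnrd1 against LP, and all but Txnrd1, Nfe2l2 and Hmox1 against ML, were called in the same direction. The basal over ML log2 fold changes were then -3.22 for Gsr, -2.81 for Gclc, -4.48 for Gpx3, -2.93 for Gstt3, 1.83 for Gsta4 and 1.63 for Gstm1, and 1.66, adjusted p = 0.0761 for Hmox1. Gpx3 had 17.7, 31.1, 13.98 and 32.5 CPM in KO basal, 93.4, 105, 19.4 and 52.2 in KO LP and 1100.2, 579, 94.5 and 685 in KO ML libraries. KO ML replicate 3 was below 1 KO LP library, and the other ML libraries were above all KO basal and LP libraries (log2 fold change -4.60, SE 0.64, adjusted p = 7.5e-05 for basal over ML; log2 fold change -3.16, SE 0.60, adjusted p = 0.00439 for LP over ML). Txnrd1 had 135, 75.96, 221 and 149 CPM in KO basal, 62.9, 84.7, 69.6 and 72.3 in KO LP and 81.2, 82.9, 83.9 and 71.3 in KO ML libraries. Basal replicates 1, 3 and 4 were above every luminal library, and replicate 2 lay within the luminal range. It was higher in basal than in LP (log2 fold change 1.06, SE 0.30, adjusted p = 0.0215) and in ML cells (log2 fold change 0.95, SE 0.30, adjusted p = 0.0316), and neither call held without KO basal replicate 3 (0.72, adjusted p = 0.0725 against LP; 0.61, adjusted p = 0.119 against ML). Without 1 LP library (replicate 1, 3 or 4) the call against LP was lost too, and the call against ML held in only 2 of the 8 fits that left out a library. Prdx6 was lower in KO basal than in KO ML cells (log2 fold change -1.24, SE 0.37, adjusted p = 0.0234), a call lost without KO ML replicate 4. The call of Gclc between KO LP and ML cells was lost without KO LP replicate 4, and that of Gsr between KO basal and LP cells without KO basal replicate 4 or KO LP replicate 1 or 2. The comparisons within KO and within WT mice used separate libraries, and the difference between genotypes is tested below.

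The regulator Nfe2l2 (chr2:75675513-75704641) had 232, 189.8, 358 and 287 CPM in KO basal, 108, 130.04, 146 and 163 in KO LP and 131, 129, 162 and 184 in KO ML libraries, with all basal libraries above all luminal ones. KO basal cells were above KO LP cells (log2 fold change 1.02, SE 0.26, adjusted p = 0.0112) and above KO ML cells (log2 fold change 0.90, SE 0.25, adjusted p = 0.0186). The basal over ML call was lost without KO basal replicate 3, which gave 0.66, adjusted p = 0.0621, and without KO ML replicate 1 or 2. In WT mice Nfe2l2 had 148, 237, 242 and 255 CPM in basal, 82.5, 169.8, 188 and 149 in LP and 119, 222, 194 and 176 in ML libraries, and its basal over LP value of 0.60, SE 0.28 did not pass (adjusted p = 0.168), while the fit with the replicate number as a block gave 0.63, adjusted p = 0.0236. The KO effect on Nfe2l2 in basal minus that in LP cells was 0.38, SE 0.37 and did not pass (adjusted p = 0.915). Keap1, which encodes the NRF2-binding ubiquitin ligase adaptor, was low throughout. It had 8.38, 4.34, 0 and 1.41, 6.03, 7.99, 5.68 and 8.96 and 17.8, 9.29, 6.57 and 8.62 CPM in KO basal, LP and ML libraries. The WT values were 8.26, 8.45, 4.83 and 3.48, 10.1, 10.2, 10.6 and 3.48 and 12.6, 9.56, 10.5 and 10.6 CPM in the same populations. It passed in none of the population comparisons, and the KO basal library at 0 was replicate 3.

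Of the 74 other genes of glutathione, thioredoxin, NADPH and NRF2 pathways that were tested, 4 were higher and 8 lower in WT basal than in LP cells. Of all 12771 genes tested, 9.12% were higher and 6.68% lower there. In WT basal against ML cells 14 were higher and 10 lower, against 14% and 10.6% of all genes. In WT LP against ML cells 10 were higher and 4 lower, against 6.62% and 4.89% of all genes. Msrb3, a methionine sulfoxide reductase, was higher in basal than in LP (log2 fold change 4.37, SE 0.29, adjusted p = 1.16e-07) and ML cells (log2 fold change 3.48, SE 0.27, adjusted p = 5.06e-07). Between basal and LP cells Nxn, which encodes nucleoredoxin, was higher in basal (log2 fold change 2.10, SE 0.41, adjusted p = 0.00211) and Me1, the NADPH-forming malic enzyme, lower (log2 fold change -2.56, SE 0.30, adjusted p = 2.67e-05). Between basal and ML cells Bach2, a repressor that binds antioxidant response elements with small MAF proteins, was higher in basal (log2 fold change 2.51, SE 0.41, adjusted p = 0.000311) and G6pdx, the first enzyme of the pentose phosphate pathway, lower (log2 fold change -2.98, SE 0.48, adjusted p = 0.0003). Ephx1 (epoxide hydrolase), Sepp1 (selenoprotein P) and Maff (a small MAF protein) were higher in LP than in ML cells, at log2 fold changes of 2.13, SE 0.31, 1.60, SE 0.31 and 1.59, SE 0.32.

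Within populations, some members passed edgeR's test between replicates 1-2 and replicates 3-4 in LP and ML cells, and none did in basal cells. Srxn1 was lower in replicates 1-2 of LP and ML cells and Hmox1 in replicates 1-2 of LP cells, while neither passed in basal cells and Hmox1 did not pass in ML cells. Srxn1 (chr2:152105516-152111376) encodes sulfiredoxin, which repairs over-oxidised peroxiredoxins, and Hmox1 (chr8:75093621-75100589) encodes the stress-inducible haem oxygenase; both are known NRF2 targets. With genotype in the model, 2 of 34 members tested were lower in replicates 1-2 of LP cells and none higher, against 3.75% of 11700 genes called (3.07% lower and 0.684% higher). In ML cells 5 of 32 differed (4 higher and 1 lower in replicates 1-2), against 5.35% of 11747 genes (2.89% higher and 2.46% lower). In basal cells 0 of 33 passed edgeR's quasi-likelihood test, where 0% of 11307 genes did. There, 4 members had an unadjusted p under 0.05 (7.32% of all genes), and DESeq2 called 2 members and 226 of 20361 genes. The median log2 fold change was 0.37, 0.28 and 0.03 for the members in basal, LP and ML cells, and 0.08, 0.05 and 0.03 for all genes tested. In basal cells the replicate pairs did not overlap for 2 members higher and 4 lower in replicates 1-2. Of all 11307 genes, 325 were so higher and 331 lower. In LP cells these were 2 and 2 members, against 740 and 928 of 11700 genes. In ML cells they were 4 and 1 members, against 876 and 919 of 11747 genes. The replicate pairs thus lay apart for many genes beyond the members. The labels give no date or batch that sets these replicates apart, and replicates 1-2 had 4846915 to 7246445 assigned counts per library, against 3098433 to 6798692 in replicates 3-4; the part of depth in the result was not tested. Summed levels of some of the 11 marker lists also lay apart between the replicate pairs. In LP cells the 4 pan-luminal markers summed to 2011 to 2774 CPM in replicates 1-2, against 3064 to 4011 CPM in replicates 3-4, and the 8 basal markers to 108.7 to 148.2 CPM, against 27.93 to 107.1 CPM. The 8 immune markers summed to 8.669 to 14.69 CPM in LP replicates 1-2, against 16.62 to 28.32 CPM in LP replicates 3-4, with the macrophage marker Adgre1 at 0 in every LP library, and the 6 erythroid markers to 0.5301 to 1.19 CPM, against 0 to 0.4746 CPM. The erythroid sums are a few counts, as 3 counts are 0.378 to 0.5651 CPM in LP replicates 1-2 and 0.4746 to 0.7227 CPM in LP replicates 3-4. In ML cells the 5 pericyte markers, mostly Notch3, summed to 111.6 to 174.2 CPM in replicates 1-2, against 74.17 to 104.9 CPM in replicates 3-4. In basal cells the 4 Schwann markers, mostly Sox10 and Mbp, summed to 77 to 93.3 CPM in replicates 1-2, against 46.83 to 67.34 CPM in replicates 3-4. The part of these genes' cells in the result was not tested.

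In LP cells Srxn1 had 78.2 and 45.7 CPM in KO replicates 1-2, against 332 and 253 CPM in KO replicates 3-4. The WT values were 55.7 and 70.3 CPM in replicates 1-2, against 237 and 201 CPM in replicates 3-4. The replicate pairs did not overlap, and Srxn1 was 4.12-fold lower in replicates 1-2 (log2 fold change -2.04, SE 0.22, adjusted p = 0.000519), with -2.23 within KO and -1.86 within WT libraries. In ML cells it had 14.8 and 19.8 CPM in KO replicates 1-2, against 68.9 and 51.5 in KO replicates 3-4. In WT ML cells it had 27.7 and 14.7 CPM in replicates 1-2, against 58.3 and 71.2 in replicates 3-4. These again did not overlap (log2 fold change -1.68, SE 0.24, adjusted p = 0.00406), with -1.80 within KO and -1.60 within WT libraries, where the WT value did not pass by itself. Basal libraries had 27.9 and 33.6 CPM in KO replicates 1-2, against 93.3 and 131 in KO replicates 3-4, and 15.2 and 37.1 CPM in WT replicates 1-2, against 108 and 123 in WT replicates 3-4. The basal libraries did not overlap either, but the value did not pass (log2 fold change -1.99, SE 0.39, adjusted p = 0.151), and without WT basal replicate 2 and KO basal replicate 3 it was -2.53, adjusted p = 0.0679. Between populations Srxn1 passed in none of the main fits. With the replicate number as a block, LP was above ML (1.65, adjusted p = 0.00271 in WT and 2.095, adjusted p = 0.000677 in KO mice). Basal was then below LP (-1.08, adjusted p = 0.024 in WT and -1.14, adjusted p = 0.0128 in KO mice). Basal over ML passed in KO mice only (0.95, adjusted p = 0.027). DESeq2 called LP over ML too (adjusted p = 0.0492 in WT and 0.022 in KO mice).

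Hmox1 showed the same order in basal and LP cells and stayed low in ML cells. In LP cells it had 51.8 and 20.9 CPM in KO replicates 1-2, against 206 and 93.8 in KO replicates 3-4, and 14.7 and 30.6 CPM in WT replicates 1-2, against 123 and 93.7 in WT replicates 3-4. The pairs did not overlap (log2 fold change -2.18, SE 0.35, adjusted p = 0.00628). In basal cells it had 17.1 and 27.9 CPM in KO replicates 1-2, against 126 and 85.5 in KO replicates 3-4, and 6.67 and 30.8 CPM in WT replicates 1-2, against 93.8 and 91.8 in WT replicates 3-4. These did not overlap and did not pass (log2 fold change -2.25, SE 0.49, adjusted p = 0.215). ML cells had 17.5, 12.3, 13.9 and 12.2 CPM in KO libraries and 7.02, 13.5, 16.1 and 15.6 CPM in WT libraries, and the log2 fold change of replicates 1-2 over 3-4 was -0.20, SE 0.30. The difference of the replicate effect between basal and ML cells was -2.05, SE 0.57 (adjusted p = 0.164) and that between LP and ML cells -1.93, SE 0.57 (adjusted p = 1), so neither passed.

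The population comparisons of Hmox1 used the same libraries. It was higher in WT basal than in ML (log2 fold change 2.11, SE 0.71, adjusted p = 0.04), in WT LP than in ML (log2 fold change 2.34, SE 0.71, adjusted p = 0.0446), in KO basal than in ML (log2 fold change 2.29, SE 0.66, adjusted p = 0.0205) and in KO LP than in ML cells (log2 fold change 2.78, SE 0.67, adjusted p = 0.0191). In WT mice each call held in only 2 of the 8 fits that left out a library. In KO mice the basal over ML call was lost without KO basal replicate 3 or 4 or KO ML replicate 4, and the LP over ML call held in 3 of 8 such fits. Among replicates 1-2 alone, the WT basal over ML value was 0.88, adjusted p = 0.59, and the WT LP over ML value 1.09, adjusted p = 0.757. Among replicates 3-4 alone, these were 2.55, adjusted p = 0.00015 and 2.79, adjusted p = 0.000373. With the replicate number as a block, basal over ML was 1.57, adjusted p = 0.0138 in WT and 1.78, adjusted p = 0.0262 in KO mice. LP over ML was then 1.87, adjusted p = 0.0082 in WT and 2.20, adjusted p = 0.0201 in KO mice. DESeq2 called all of these too. With no filter on low counts none of them passed, with 2.06, adjusted p = 0.147 for WT basal over ML.

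**Figure D3:**
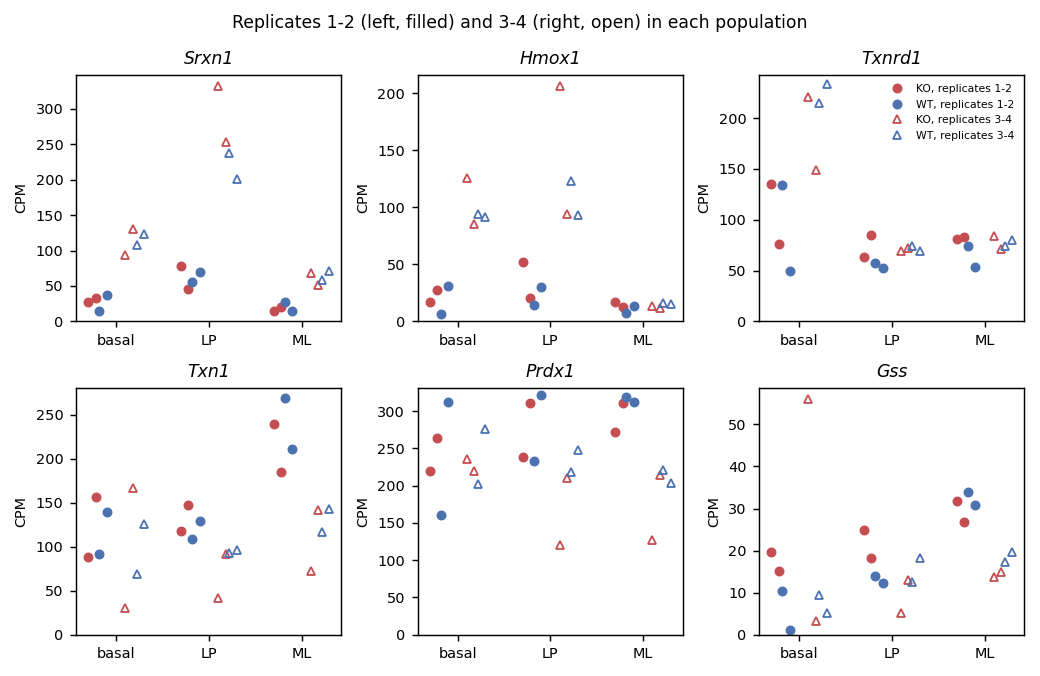
CPM of 6 members in basal, LP and ML cells, with replicates 1-2 (filled circles) left of replicates 3-4 (open triangles), KO in red and WT in blue; each point is 1 library. The points of Srxn1 lie lower in replicates 1-2 in all 3 populations and those of Hmox1 in basal and LP cells, without passing the test in basal cells, while Txn1, Prdx1 and Gss are higher in replicates 1-2 of ML cells.

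A further 4 members passed in ML cells, each higher in replicates 1-2. Txn1 (chr4:57943373-57956411) had 239 and 185 CPM in KO replicates 1-2, against 72.7 and 142 in KO replicates 3-4, and 269 and 212 CPM in WT replicates 1-2, against 117 and 143 in WT replicates 3-4. There was no overlap (log2 fold change 0.96, SE 0.20, adjusted p = 0.0224). Prdx1 (chr4:116685544-116700822) had 272 and 311 CPM in KO replicates 1-2, against 128 and 214 in KO replicates 3-4, and 319 and 312 CPM in WT replicates 1-2, against 221 and 203 in WT replicates 3-4 (log2 fold change 0.70, SE 0.17, adjusted p = 0.0355). Gss had 31.8 and 26.8 CPM in KO replicates 1-2, against 13.7 and 14.9 in KO replicates 3-4, and 33.9 and 30.7 CPM in WT replicates 1-2, against 17.3 and 19.6 in WT replicates 3-4 (log2 fold change 0.94, SE 0.20, adjusted p = 0.0238). Neither gene's pairs overlapped. Gstp1, a pi-class transferase with shared reads, had 17.8 and 25.3 CPM in KO replicates 1-2, against 7.51 and 14.4 in KO replicates 3-4, and 25.5 and 29.5 CPM in WT replicates 1-2, against 14.9 and 14.3 in WT replicates 3-4 (log2 fold change 0.97, SE 0.25, adjusted p = 0.0463).

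Same-numbered KO and WT libraries deviated together in LP and ML cells, so the counts of each number were also summed over genotypes, leaving 2 sums against 2. Srxn1 and Hmox1 passed again in LP cells (-2.09, adjusted p = 0.00082 and -2.26, adjusted p = 0.00374) and Srxn1 in ML cells (-1.67, adjusted p = 0.0125). The 4 other ML calls did not pass on these sums, with 0.94, adjusted p = 0.0775 for Txn1, 0.68, adjusted p = 0.0946 for Prdx1, 0.90, adjusted p = 0.0964 for Gss and 0.96, adjusted p = 0.106 for Gstp1, where 0.953% of all genes were called. With limma's voom and a correlation within numbers estimated over all genes, Txn1, Prdx1 and Gss passed, and Gstp1 did not (0.98, adjusted p = 0.0578).

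These 4 calls were less firm than that of Srxn1: of the 8 fits that left out an ML library, Txn1 passed in 3, Prdx1 and Gss in 2 each and Gstp1 in none, while Srxn1 passed in 8. The count of members called in ML cells was 1 without WT ML replicate 1, 3 or 4 or KO ML replicate 1 or 3, and 3 without KO ML replicate 2 or 4. In KO ML replicate 3, Txn1 and Prdx1 were at their lowest among ML libraries, as Gpx3 was. Txnrd1 in basal cells had 135 and 75.96 CPM in KO replicates 1-2, against 221 and 149 in KO replicates 3-4, and 134 and 49.7 CPM in WT replicates 1-2, against 215 and 234 in WT replicates 3-4. The pairs did not overlap and the value did not pass (log2 fold change -1.08, SE 0.34, adjusted p = 0.447).

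Among the other pathway genes, 2 of 71 tested were higher and 2 lower in replicates 1-2 of LP cells, against 0.684% and 3.07% of all genes. In ML cells 4 of 70 were higher and 1 lower, against 2.89% and 2.46% of all genes. None of 68 passed in basal cells by edgeR's test, with 7 at an unadjusted p under 0.05 (7.32% of all genes). In basal cells DESeq2 called 1 other pathway gene, and 226 of 20361 genes. Sqstm1, which encodes p62, a KEAP1-binding autophagy receptor and NRF2 target, was lower in replicates 1-2 of LP cells. It had 278 and 172 CPM in KO replicates 1-2, against 795 and 538 in KO replicates 3-4, and 189 and 192 CPM in WT replicates 1-2, against 369 and 495 in WT replicates 3-4 (log2 fold change -1.40, SE 0.21, adjusted p = 0.00438). In ML cells it was lower as well (log2 fold change -0.70, SE 0.15, adjusted p = 0.0227). G6pdx and Txnip, the thioredoxin-binding protein gene, were higher in replicates 1-2 of LP cells (1.08 and 1.36, adjusted p = 0.0122 and 0.0122). Pgd, the second dehydrogenase of the pentose phosphate pathway, and Sepw1, selenoprotein W, were higher in replicates 1-2 of ML cells (log2 fold change 0.94, SE 0.17, adjusted p = 0.0123 for Pgd; log2 fold change 1.32, SE 0.29, adjusted p = 0.0271 for Sepw1). Nfe2l2 itself had log2 fold changes of -0.49, SE 0.27 in basal, -0.42, SE 0.21 in LP and -0.24, SE 0.19 in ML cells and did not pass.

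Promoter windows of Srxn1, Prdx1 and Txnrd1 are shown because these genes, which act in 1 peroxiredoxin repair and reduction chain, differed between replicate pairs or populations and because their windows hold the core of the antioxidant response element. Each window runs from 250 bases before to 50 after a RefSeq start on GRCm38.p6, 5′ to 3′ on the gene's strand. Capitals mark matches on either strand to TGACNNNGC, the element's core, or to TGAGTCA, the AP-1 site; where 2 matches overlap, they form 1 run of capitals.
Srxn1, chr2:152105274-152105573, plus strand: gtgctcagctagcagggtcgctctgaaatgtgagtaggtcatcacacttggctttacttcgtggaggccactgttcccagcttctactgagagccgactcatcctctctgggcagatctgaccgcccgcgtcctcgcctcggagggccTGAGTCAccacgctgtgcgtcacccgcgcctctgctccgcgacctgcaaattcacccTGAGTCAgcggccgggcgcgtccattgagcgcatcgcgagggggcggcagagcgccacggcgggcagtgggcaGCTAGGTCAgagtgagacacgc
Prdx1, chr4:116685349-116685648, plus strand: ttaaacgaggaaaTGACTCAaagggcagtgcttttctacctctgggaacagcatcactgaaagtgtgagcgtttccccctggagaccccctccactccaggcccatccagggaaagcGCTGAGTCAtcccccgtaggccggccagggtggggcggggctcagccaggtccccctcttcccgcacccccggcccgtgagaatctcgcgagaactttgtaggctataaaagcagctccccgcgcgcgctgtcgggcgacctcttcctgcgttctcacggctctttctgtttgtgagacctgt
Txnrd1, chr10:82858956-82859255, plus strand, 1 of its 3 windows: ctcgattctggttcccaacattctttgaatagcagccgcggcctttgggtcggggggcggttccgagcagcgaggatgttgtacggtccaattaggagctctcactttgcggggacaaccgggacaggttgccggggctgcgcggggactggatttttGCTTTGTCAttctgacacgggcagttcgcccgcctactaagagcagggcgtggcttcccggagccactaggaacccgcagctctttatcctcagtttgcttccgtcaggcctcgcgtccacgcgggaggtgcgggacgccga
Counted from 1 at the 5′ end, the Srxn1 window held TGACNNNGC at bases 279 to 287, on the opposite strand and after the start, and TGAGTCA at bases 149 to 155 and 206 to 212. In the Prdx1 window, TGACNNNGC at bases 118 to 126 on the opposite strand overlapped TGAGTCA at bases 120 to 126, and a further TGAGTCA stood at bases 14 to 20 on the opposite strand. The Txnrd1 window held TGACNNNGC at bases 159 to 167 on the opposite strand. Of the 38 members, 32 had windows in the RefSeq table (Gsr, Prdx6, Gsta4, Gclc, Hmox1 and Sod3 did not match). TGACNNNGC was in 8 of the 32 (Srxn1, Prdx1, Txnrd1, Gclm, Mgst1, Sod1, Nfe2l2 and Gsta3), 25%, and in 14% of 27025 genes. TGAGTCA was in 4 of the 32 (Srxn1, Prdx1, Gstp1 and Mgst2), 12.5%, and in 5.95% of genes. Some genes have several windows; 12.4% of all 32851 windows held TGACNNNGC and 5.2% held TGAGTCA. A match describes letters only.

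No member passed between KO and WT cells in any population. In basal cells edgeR's test called 0 of 33 members and 0% of 11307 genes, with 2 members at an unadjusted p under 0.05 (3.39% of all genes) and 0 by DESeq2. In LP cells it called 0 of 34 members and 0% of 11700 genes, with 1 member at an unadjusted p under 0.05 (3.75% of all genes) and 0 by DESeq2. In ML cells it called 0 of 32 members and 0.00851% of 11747 genes, with 2 members at an unadjusted p under 0.05 (3.87% of all genes). DESeq2 called 1 member there, and 11 of 21431 genes. KO and WT libraries did not overlap for 1 of 33, 0 of 34 and 1 of 32 members in basal, LP and ML cells (Gpx3 in basal and Gsta4 in ML cells), near the share of all genes, which was 2.66%, 2.69% and 2.66%. The members' median log2 fold change was -0.02, -0.11 and -0.15, against 0.01, 0.00 and 0.01 for all genes.

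Gpx3 had 17.7, 31.1, 13.98 and 32.5 CPM in KO basal libraries, against 113, 159, 72.4 and 36.8 CPM in WT basal libraries. Every KO library was below every WT library (log2 fold change -2.01, SE 0.50, adjusted p = 0.998), and without WT basal replicate 2 and KO basal replicate 3 the value was -1.41. In LP cells Gpx3 had 93.4, 105, 19.4 and 52.2 CPM in KO, against 136, 60.3, 39.8 and 123 CPM in WT libraries, with wide overlap (log2 fold change -0.42, SE 0.48, adjusted p = 0.999). In ML cells it had 1100.2, 579, 94.5 and 685 CPM in KO, against 3130.1, 1993, 980.2 and 1507 CPM in WT libraries, so 3 of 4 KO libraries were below all WT libraries (log2 fold change -1.63, SE 0.61, adjusted p = 0.998). Same-numbered ML and LP libraries deviated together across genotypes, and with the replicate number as a block the ML value was -1.91, adjusted p = 0.426. In basal cells Gpx3 passed only when genes with low counts were kept (-1.99, adjusted p = 0.0299), among alternatives whose adjusted p ran from 0.0299 to 1. The 8 mature luminal markers summed to 194 to 425 CPM in KO basal and 235 to 603 CPM in WT basal libraries, with the highest sum in WT basal replicate 2; their part in the basal values was not tested.

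Gsta4 (chr9:78182774-78209349) had 5.60, 18.4, 7.89 and 4.85 CPM in KO ML libraries, against 30.5, 23.05, 46.5 and 28.7 CPM in WT ML libraries. All KO values were below all WT values, a 3.42-fold lower level that did not pass (log2 fold change -1.77, SE 0.42, adjusted p = 0.998). DESeq2 called it (-1.78, adjusted p = 0.0422), among alternatives whose adjusted p ran from 0.0422 to 1. In LP cells Gsta4 had 3.96, 12.4, 5.92 and 7.90 CPM in KO, against 13.5, 23.3, 19.8 and 5.54 CPM in WT libraries, overlapping (log2 fold change -1.03, SE 0.49, adjusted p = 0.999). In basal cells the values overlapped and leaned the other way, at 37.9, 18.7, 17.9 and 40.7 CPM in KO and 22.6, 17.5, 25.05 and 11.3 CPM in WT libraries (log2 fold change 0.60, SE 0.57, adjusted p = 0.998). The difference of the KO effect between basal and ML cells was 2.39, SE 0.72 and did not pass (adjusted p = 0.545).

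**Figure D4:**
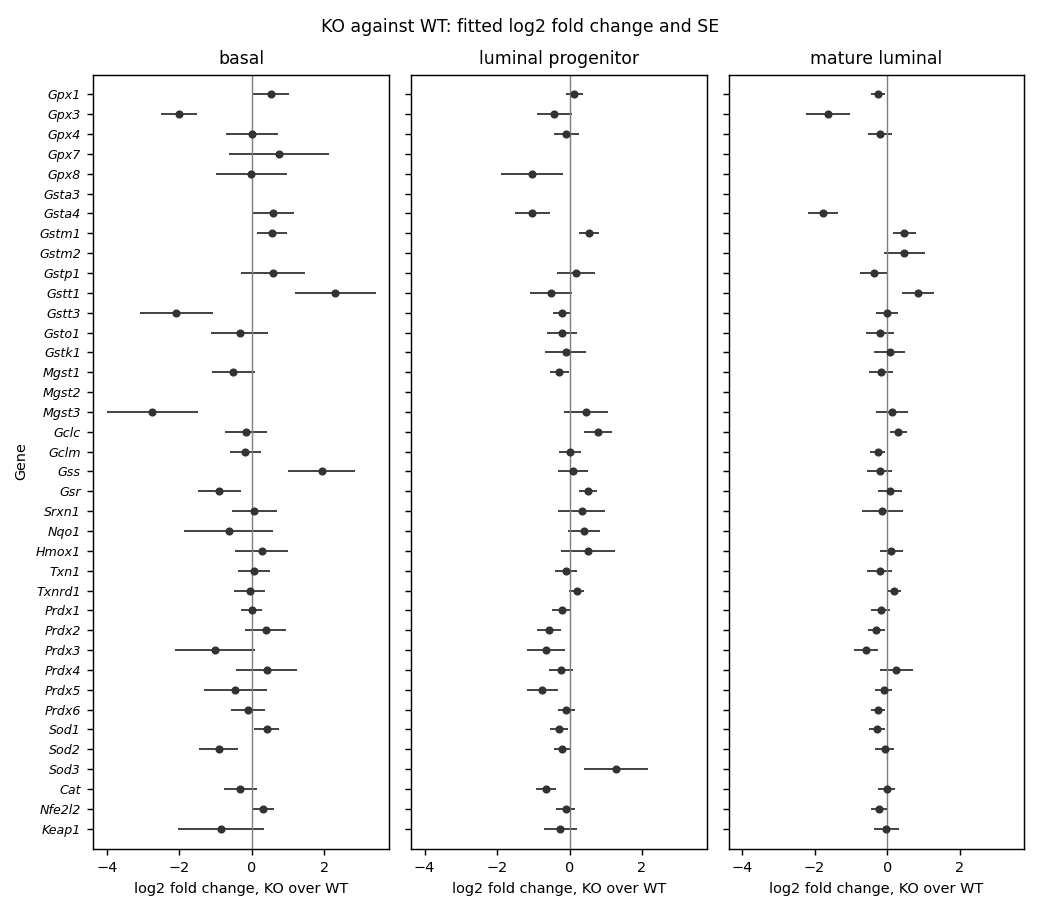
Fitted log2 fold change of KO over WT (points) with its SE (bars) for each member tested, with basal cells left, LP cells in the middle and ML cells right; members without a point were below the filter on low counts. None passed the test; Gpx3 lies at -2.01 in basal and -1.63 in ML cells and Gsta4 at -1.77 in ML cells.

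The other members with the smallest p overlapped between genotypes. In basal cells Mgst3, a microsomal transferase, had 0.967, 3.58, 0.65 and 0.235 CPM in KO and 2.61, 24.6, 7.24 and 1.99 CPM in WT libraries (log2 fold change -2.75, SE 1.26, adjusted p = 0.998), with its highest value in WT basal replicate 2 and a value of -1.45 without that library. Gss had 19.7, 15.1, 55.9 and 3.30 CPM in KO basal and 10.3, 1.18, 9.35 and 5.14 CPM in WT basal libraries (log2 fold change 1.93, SE 0.92, adjusted p = 0.998). Its extremes were the 2 libraries that stand apart, and without both the value was 0.63. In LP cells Cat had 139.6, 161, 93.3 and 166 CPM in KO and 247, 301, 203 and 129 CPM in WT libraries (log2 fold change -0.65, SE 0.27, adjusted p = 0.999). Gsr in LP cells had 44.5, 52.9, 32.4 and 39.2 CPM in KO and 29.7, 36.6, 24.1 and 27.7 CPM in WT libraries (log2 fold change 0.52, SE 0.25, adjusted p = 0.999), with 3 of 4 KO libraries above all WT libraries. In ML cells Gstt1, a theta-class transferase, had 6.28, 3.55, 6.76 and 10.4 CPM in KO and 2.17, 4.27, 4.63 and 3.98 CPM in WT libraries (log2 fold change 0.85, SE 0.45, adjusted p = 0.998), at low counts.

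Whether the KO effect differed between populations was tested over all 24 libraries, and 0 of 37 members passed in each of the 3 tests, as 0% of 14082 genes did. At an unadjusted p under 0.05 there were 5 members for the basal minus LP effect, 4 for basal minus ML and 0 for LP minus ML, where 6.96%, 6.89% and 1.32% of all genes were. DESeq2 called 0 in each. Beside Gsta4, the smallest p belonged to Gsr for basal against LP (-1.41, SE 0.48, adjusted p = 0.517) and to Gpx3 for LP against ML (1.22, SE 0.83, adjusted p = 1). The replicate effect was compared between populations in the same way, and 0 of 37 members passed by edgeR's test in each comparison, where 0.0071%, 0.0284% and 0% of genes did. At an unadjusted p under 0.05 there were 2 members for the basal minus LP effect, 7 for basal minus ML and 2 for LP minus ML, where 8.7%, 10.5% and 2.52% of all genes were. DESeq2 called 0, 1 and 0, the 1 being Hmox1, and it called 294 of 23946 genes for basal minus ML. Gstp1 had the smallest p for basal against LP (-2.28, SE 0.88, adjusted p = 0.474).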

How the data were processed

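RNA from sorted cells was amplified and sequenced; per the submitters' processing notes, reads were handled with cutadapt, STAR and RSEM on mm10, and per the deposited table the values are expected counts per gene, which the authors did not normalize. The deposited Length column gave the per kilobase levels. Counts were rounded, genes with low counts were removed with filterByExpr, and edgeR 4.0.16 (R 4.3.3, limma 3.58.1 loaded) fitted TMM-scaled quasi-likelihood models over all genes, with Benjamini-Hochberg adjustment and a threshold of 0.05. DESeq2 1.42.0 was an alternative. KO was set against WT in 8 libraries per population, populations in 12 libraries per genotype, replicates 1-2 against 3-4 in 8 libraries with genotype as a term, and differences of effects in all 24. SE is the log2 fold change divided by the root of F.

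Same-numbered KO and WT libraries deviated together in LP (correlations 0.118 to 0.356) and ML cells (0.122 to 0.332), and the numbers were treated as pairs there. These deviations include the difference between replicates 1-2 and 3-4. With that difference in the model, the correlation within numbers from limma's voom was 0.0294 in LP and 0.0461 in ML cells. The correlations thus do not show by themselves that the numbers are pairs. The match was not complete: KO LP replicate 4 had 0.118 with its own number and 0.14 with another WT LP replicate. The block called 0 members between KO and WT in LP and ML cells. Replicate pairs were also compared on counts summed per number and with limma's voom. Replicate numbers are those of the titles. Coordinates are from GENCODE on GRCm38, the sequence of mm10. Scripts were tested on simulated data.

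Values for every library are given for Nfe2l2, Keap1, the 3 members with the smallest p where none passed between genotypes or replicate pairs, the 3 largest called changes in each direction between populations, and the called members (up to 5) between replicate pairs. The members and lists were chosen with earlier results of these data known. The list of other pathway genes matched 91 of 92 symbols, 3 of them through another symbol.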

Additional observations from a re-analysis of the deposited data

Results flagged for a closer look

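In groups of 4 libraries, the highest or lowest library stood apart from the other 3 by a gap above Dixon's 95% critical value in 10 of the 138 groups examined, over 23 members; chance gives about 1 in 20 groups. WT basal replicate 2 was the high library for Mgst1 (90.75 CPM, others 26.56 to 37.46), Nqo1 (28.48 CPM, others 1.16 to 2.174) and Gstt3 (63.44 CPM, others 2.174 to 11.47), and it also held 7172 CPM of luminal progenitor markers; their part in these values was not tested. Nfe2l2 was low in WT basal replicate 1 (148.3 CPM, others 237.5 to 254.6). In KO basal cells Nqo1 was high in replicate 3 (14.31 CPM, others 2.119 to 3.016) and Gclc in replicate 4 (53.92 CPM, others 12.44 to 17.56). In KO LP cells Gpx1 was high in replicate 3 (112.9 CPM, others 72.7 to 78.55) and Mgst3 low in replicate 4 (3.336 CPM, others 6.155 to 6.459). In WT LP cells replicate 4 was low for Nqo1 (9.492 CPM, others 27.71 to 29.86) and Keap1 (3.48 CPM, others 10.08 to 10.6).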

How the results depend on the processing

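Alternative runs were followed for each member that passed in a comparison, and for the members with the smallest p where none passed. None of these log2 fold changes changed sign under any alternative run. Other values, such as those of Keap1, were not followed. Leaving out 1 library at a time, the members called ranged from 2 to 9 between WT basal and LP cells, 10 to 18 between WT basal and ML, 6 to 9 between WT LP and ML, 3 to 7 between KO basal and LP, 6 to 12 between KO basal and ML, 5 to 7 between KO LP and ML, 2 to 3 between replicate pairs in LP cells and 1 to 4 in ML cells, and stayed at 0 in the other comparisons. With no filter on low counts, 1 member was called between KO and WT basal cells, 7 between WT LP and ML, 2 between replicate pairs in basal and 4 in LP cells, and 1 for the replicate effect of basal against ML. Over all genes, 30 of 20361, 1347 of 22488, 82 of 20361, 1036 of 21071 and 114 of 23946 were called there. DESeq2 called 1 between KO and WT ML cells, 2 between replicate pairs in basal cells and 1 for the replicate effect of basal against ML. Over all genes it called 11 of 21431, 226 of 20361 and 294 of 23946 there. With the replicate number as a block, 9 were called between WT basal and LP cells (17.5% of all genes) and Nqo1 was lost between KO basal and LP cells (-2.73, adjusted p = 0.0545). Numbers were taken as pairs only where all 4 same-numbered pairs correlated above 0.1. Same-numbered libraries of different populations did not all do so, nor did KO and WT basal libraries (0.0572 to 0.14). A rule of closest match would differ. Each sample correlated best with its own number in 4 of 4 pairs for KO and WT basal libraries and between WT populations. For KO and WT LP libraries this held in 3 of 4 pairs. Between replicate pairs, with the replicate block made by summing KO and WT counts per number, 2 members were called in LP cells and 1 in ML cells, fits with fewer samples; with limma's voom and an estimated correlation within numbers (0.0294 in LP and 0.0461 in ML cells) 2 and 4 were called. Both, like the block beside the pair terms for the replicate effects (0 members), were chosen after seeing the data. The block changed no other count by over 1.5 times.

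Within replicates 1-2 alone, 0, 3 and 2 members were called between WT basal and LP, basal and ML, and LP and ML cells. The shares of all genes were 2.65%, 6.64% and 1.09%. Between the same KO populations 4, 5 and 1 were called, against 6.3%, 9.37% and 0.128% of all genes. Within replicates 3-4 alone, 10, 14 and 9 were called between the WT populations in that order, against 15.4%, 24% and 10.8%. Between the KO populations 2, 5 and 3 were called, against 5.93%, 8.64% and 1.44%. Within KO libraries, 1 was called between replicate pairs in LP (0.0852% of all genes) and 1 in ML cells (0.339%). Within WT libraries 0 were called in ML cells, as 0% of all genes were. These fits hold fewer samples. Over all genes, DESeq2 called 1054 genes between replicate pairs in LP and 1114 in ML cells and no filter called 1036 and 1291, against 439 and 628; DESeq2 called 3146, 3708 and 1221 genes between KO basal and LP, basal and ML, and LP and ML cells, against 1883, 2463 and 721; the cause was not tested. Without WT basal replicate 2 and KO basal replicate 3, a choice made after seeing the data, 0 members were called between KO and WT basal cells or between replicate pairs. Neither DESeq2's size factors nor leaving out mitochondrial genes moved the median of all genes by over 0.1. Depth limits the lowest members: 3 counts are 0.378 to 0.976 CPM.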
